A study of Homo sapiens with 6 samples.

Results

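The VEGF, angiopoietin and angiopoietin-like ligands examined here are 10 genes, ANGPTL1, ANGPTL2, ANGPTL4, ANGPTL7, ANGPT1, ANGPT2, VEGFA, VEGFB, VEGFC and PGF, of the 58051 Ensembl genes counted in 6 RNA-seq libraries of A172 cells. They were picked by name, with ANGPTL7 put forward because it was nearly silent in control cells and clearly present in RBFOX1 cells. That difference between the conditions is therefore how the genes were chosen, and the values of the 10 ligands are given as a description, from which no test is read. A172 cells are a long-established line grown from a human glioblastoma. Both groups are stable lines made with a lentiviral vector, pLX317, which carried the open reading frame of GFP in the 3 control libraries (GFP cells) and that of RBFOX1, an RNA-binding protein that recognises TGCATG in DNA letters, in the other 3 (RBFOX1 cells). All 6 libraries thus come from transduced cells of the same line grown in the same serum-containing medium, and no untransduced cells were compared. The study raised RBFOX1 in these cells to ask how transcripts respond when a factor that is low in glioblastoma is restored.

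These ligands are secreted proteins that act on the vessel wall and on lipid handling. VEGFA binds the receptor tyrosine kinases FLT1 and KDR, VEGFB and PGF bind FLT1, and VEGFC binds FLT4 and KDR, with the neuropilins NRP1 and NRP2 as co-receptors; in glioblastoma, VEGFA is known as a driver of the abnormal tumour vessels. The angiopoietins act on the receptor TEK, ANGPT1 as an activator and ANGPT2 mostly as an antagonist. The angiopoietin-like proteins share the coiled-coil and fibrinogen-like parts of the angiopoietins but do not bind TEK, and ANGPTL4 is best known as an inhibitor of lipoprotein lipase.

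RBFOX1 had at most 4 counts in a GFP library and from 10276 to 21451 in the RBFOX1 libraries. Between 7433414 (RBFOX1 replicate 1) and 23249221 (GFP replicate 1) read pairs were counted on genes. Levels are given in CPM, the counts of a gene scaled to a library of fixed size with edgeR's TMM factors, and 3 counts, used here as the limit that a count of 0 allows, were worth 0.131 to 0.392 CPM. Intervals and limits given here cover counting error only. Of the markers checked for the cell line, VIM, NES, CD44 and EGFR had at least 1434 counts in every library, whereas GFAP and S100B, typical of astrocytes, had at most 4 counts in any. The stem cell factor gene SOX2 was low in GFP cells (1.69 ± 0.332 CPM) and higher in RBFOX1 cells (9.49 ± 0.695 CPM; SD, n = 3 each), and OLIG2 went from 8.87 ± 0.766 to 6.16 ± 0.811 CPM (SD, n = 3 each). VIM and CD44 were lower in RBFOX1 cells, by log2 fold changes of -0.65 and -0.90, and NES was higher, by 0.60, so that the line's own markers differed between the conditions. The study's methods place the biological replicates of each construct at the virus-making transfection. They do not say more about how the libraries of a condition were kept apart, so the spread between them may be partly technical. For each pair of libraries, a chi-square per degree of freedom set their differences against counting error. It was 8.9 and 9.07 for GFP replicate 1 against GFP replicates 2 and 3, and 1.66 between the latter. Among the RBFOX1 libraries it lay between 1.98 and 3.01. The measure grows with depth, and GFP replicate 1 was the deepest library.

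The angiopoietin-like ligands were higher in RBFOX1 cells and VEGFA, VEGFC, PGF and ANGPT1 were lower, while VEGFB lay at the same level within its spread. Summed over the 4 angiopoietin-like genes, expression was 1.54 ± 0.277 CPM (SD, n = 3) in GFP cells and 14.5 ± 0.828 CPM (SD, n = 3) in RBFOX1 cells. Summed over VEGFA, VEGFB, VEGFC and PGF it was 308 ± 9.10 CPM (SD, n = 3) in GFP cells and 190 ± 7.02 CPM (SD, n = 3) in RBFOX1 cells. VEGFA made up most of that sum, at 240 ± 8.5 and 133 ± 5.87 CPM (SD, n = 3 each), and CPM takes no account of gene length. In the comparison across all genes, 5 of the 10 ligands were past an adjusted p of 0.05 with a higher and 4 with a lower value in RBFOX1 cells (edgeR's quasi-likelihood test), where 46.7% of the 20536 genes tested were past it in either direction, 23.7% higher and 22.9% lower. For 9 of the 10 the values of the conditions did not overlap, 5 with RBFOX1 above and 4 with RBFOX1 below, as was the case for 53.4% of all genes tested (26.9% above and 26.5% below). Nothing is read from these counts, since the ligands were chosen with the contrast known. ANGPTL7, ANGPTL1 and ANGPT2 had 3, 5 and 2 counts in all GFP libraries together and reached the minimum of 10 summed counts only through the RBFOX1 libraries. In bulk RNA, fewer cells carrying a transcript and less of it per cell cannot be told apart.

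**Figure D1:**
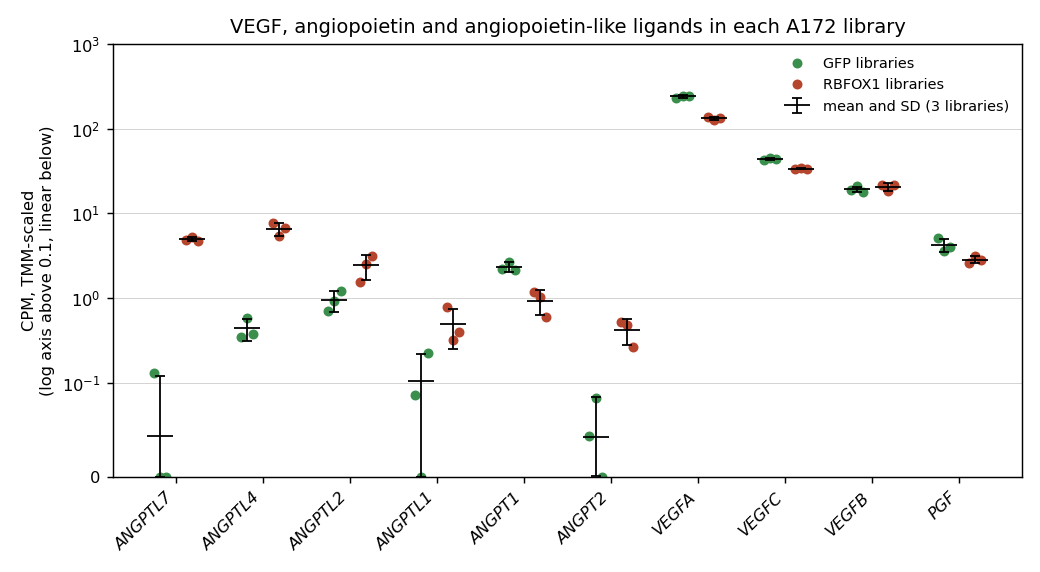
CPM (TMM-scaled, vertical axis logarithmic above 0.1 and linear below) of each ligand in the 3 GFP and 3 RBFOX1 libraries (points), with the mean and SD of each condition as black bars (cut at 0). The RBFOX1 points lie above the GFP points for ANGPTL7, ANGPTL4, ANGPTL2, ANGPTL1 and ANGPT2, below them for ANGPT1, VEGFA, VEGFC and PGF, and overlap them for VEGFB.

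ANGPTL7 (ENSG00000171819), which encodes a secreted protein known mainly from the cornea and the trabecular meshwork of the eye, lies on chromosome 1 of GRCh38 from 11189355 to 11195981 on the plus strand. It had 3, 0 and 0 counts in GFP replicates 1, 2 and 3. In RBFOX1 replicates 1, 2 and 3 it had 37, 66 and 72 counts, or 4.84, 5.28 and 4.74 CPM. All 3 RBFOX1 libraries therefore lay far above the control libraries and close to one another, at 4.95 ± 0.289 CPM (SD, n = 3). The ratio of the summed counts, corrected for library size, was 79.1, with an exact 95% interval from 26.6 to 387 that reflects the 3 control counts. These 3 counts all came from GFP replicate 1, the deepest library. Without it no GFP library had a count, and taking 3 counts over the 2 remaining GFP libraries as the control level gave a ratio of 41.3. That ratio leaves out the counting error of the RBFOX1 libraries. The fitted log2 fold change was 6.12 (standard error 0.398) and lay between 5.70 and 8.91 with each library left out in turn, the highest being the fit without GFP replicate 1.

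ANGPTL7 lies inside MTOR, which is transcribed from the opposite strand, and 151 bases of its exons are also exonic in MTOR. MTOR, the kinase of the growth pathway of that name, was well expressed in both conditions, at 100 ± 3.86 CPM in GFP and 108 ± 3.60 CPM in RBFOX1 cells (SD, n = 3 each), and its log2 fold change of 0.11 did not pass the threshold (adjusted p = 0.116, edgeR's quasi-likelihood test). The libraries were stranded and counted with the reverse setting. MTOR had 2198, 1234 and 1326 counts in the GFP libraries, where ANGPTL7 had 3, 0 and 0, and 808, 1317 and 1698 counts in the RBFOX1 libraries. The part of MTOR reads in the ANGPTL7 counts was not tested. ANGPTL1, ANGPTL2 and ANGPT2 also sit inside larger genes on the opposite strand. For ANGPT2, 658 bases of its exons are also exonic in its host MCPH1, whereas ANGPTL1 and ANGPTL2 share no exonic base with their hosts. The part of MCPH1 reads in the ANGPT2 counts was not tested. Among these host genes, RALGPS2 around ANGPTL1 (log2 fold change 0.063, adjusted p = 0.487) and MCPH1 around ANGPT2 (log2 fold change -0.096, adjusted p = 0.242) did not pass the threshold. RALGPS1 around ANGPTL2 fell by 0.41 on the log2 scale (adjusted p = 0.037), the opposite direction to ANGPTL2, but its call was lost with DESeq2 (adjusted p = 0.167), with a replicate block (0.0551) and without GFP replicate 3 (0.158) or RBFOX1 replicate 3 (0.28).

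ANGPTL4 (ENSG00000167772, chromosome 19, 8363289 to 8374370, plus strand) had 8, 7 and 5 counts in the GFP replicates and 59, 67 and 102 in the RBFOX1 replicates. In CPM these were 0.350, 0.589 and 0.380 against 7.71, 5.36 and 6.71. The highest control library stayed below the lowest RBFOX1 library by a wide margin, and the fitted log2 fold change was 3.93 (standard error 0.254), a 15.2-fold difference. It moved between 3.73 and 4.13 with each library left out. All 20 control counts together were fewer than the counts of any single RBFOX1 library.

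ANGPTL2 (ENSG00000136859, chromosome 9, 127087348 to 127122635, minus strand), a ligand linked to inflammation, was counted 16, 11 and 16 times in the GFP and 12, 32 and 48 times in the RBFOX1 libraries. After scaling for depth these became 0.700, 0.926 and 1.22 CPM against 1.57, 2.56 and 3.16 CPM. The groups did not overlap, although the RBFOX1 libraries were unevenly high, and the fitted log2 fold change was 1.496 (standard error 0.289).
ANGPTL1 (ENSG00000116194, chromosome 1, 178849535 to 178871077, minus strand), described as a vessel-restraining member, was counted 2, 0 and 3 times in the GFP and 6, 4 and 6 times in the RBFOX1 libraries. The ratio of the summed counts was 4.34 with an exact 95% interval from 1.52 to 15.1. Both genes stayed low in either condition.

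The TGCATG element that RBFOX1 recognises was looked for on the transcribed strand of the 3' untranslated region (3' UTR) of the canonical transcript of each ligand. Of the 10 ligands, 3 held it: ANGPTL1 with 3 sites, ANGPTL4 with 1 and ANGPT1 with 1. At least 1 site was held by 36.5% of the 14076 protein-coding genes tested whose 3' UTR is annotated. ANGPTL7 had none in 958 bases, and VEGFA none in 1925. The windows below are shown because ANGPTL4 and ANGPTL1 were among the ligands that were higher in RBFOX1 cells, and because TEK, the angiopoietin receptor, which also rose, held a site as well. FLT1, FLT4 and NRP2, receptors that rose too, were searched in the same way and held none, nor did NRP1, KDR, TIE1 and VEGFD. Capitals mark the element in each 30-base window (GRCh38, read 5' to 3' on the gene's strand).
ANGPTL4 (chr19:8374047-8374076, plus strand): gtgcaggggggcTGCATGcgttgcctcctg
ANGPTL1 first site (chr1:178850477-178850506, minus strand): acccaaaaataaTGCATGcataatttaaat
ANGPTL1 second site (chr1:178850176-178850205, minus strand): tacaagtattagTGCATGctcagaacaggt
ANGPTL1 last site (chr1:178849821-178849850, minus strand): tgaggcaaactaTGCATGggaatagcttaa
TEK (chr9:27229369-27229398, plus strand): ctgtagatcccaTGCATGgatctatgtagt
In ANGPTL4 the site began 173 bases past the stop codon of a 484-base 3' UTR, and 13.4% of the 1214 tested genes whose 3' UTR length lay within 20% of this held a site. For ANGPTL1 the corresponding share was 36.6% of 1916 genes, and for TEK 25.1% of 1604 genes. A match is a string of letters and not a measured binding site. ANGPT1, which was lower in RBFOX1 cells, held a site too, so that a site was found in ligands of either direction. The ANGPT1 site began 987 bases past the stop codon of a 2373-base 3' UTR, and the corresponding share was 52.7% of 1941 genes.

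ANGPT1 (ENSG00000154188, chromosome 8, 107249482 to 107498055, minus strand) was counted 51, 32 and 28 times in the GFP and 9, 13 and 9 times in the RBFOX1 libraries. In CPM it stood at 2.23, 2.69 and 2.12 against 1.18, 1.04 and 0.592. Each RBFOX1 library was below every control library, and the fitted log2 fold change was -1.39 (standard error 0.279), a level 2.62-fold higher in GFP cells. ANGPT2 (ENSG00000091879, chromosome 8, 6499632 to 6563409, minus strand) was counted 1, 1 and 0 times in the GFP and 4, 6 and 4 times in the RBFOX1 libraries. The ratio of its summed counts was 9.49 with an exact 95% interval from 2.18 to 86.0, an interval too wide to rank it among the ligands that were higher. Per length, ANGPT2 made up 1.73 ± 1.61% (SD, n = 3) of the summed angiopoietin transcripts in GFP cells and 32.1 ± 0.476% (SD, n = 3) in RBFOX1 cells, a share that rests on these few ANGPT2 counts and on the lower level of ANGPT1.

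VEGFA (ENSG00000112715, chromosome 6, 43770184 to 43786487, plus strand) was counted 5267, 2921 and 3219 times in the GFP and 1063, 1590 and 2025 times in the RBFOX1 replicates. It reached 230, 246 and 244 CPM in GFP cells and 139, 127 and 133 CPM in RBFOX1 cells. The groups were well apart relative to their spread, and the log2 fold change was -0.85 (standard error 0.0514), a level 1.81-fold higher in GFP cells. It stayed between -0.88 and -0.82 with each library left out. VEGFA is translated from several splice forms, which gene counts do not separate.
VEGFC (ENSG00000150630, chromosome 4, 176683538 to 176792922, minus strand), the main ligand of lymphatic vessels, stood at 43.1, 45.02 and 43.7 CPM in GFP and at 33.2, 34.0 and 33.5 CPM in RBFOX1 cells. Its replicates agreed closely, and the log2 fold change was -0.38 (standard error 0.0654).
PGF (ENSG00000119630, chromosome 14, 74941834 to 74955626, minus strand), placental growth factor, had 5.12, 3.62 and 4.02 CPM in GFP and 2.61, 3.12 and 2.83 CPM in RBFOX1 cells. The control libraries were uneven, GFP replicate 1 being the highest, and the log2 fold change of -0.60 (standard error 0.184) became -0.40 without that library.
VEGFB (ENSG00000173511, chromosome 11, 64234584 to 64239264, plus strand), a ligand with little effect on vessel growth but linked to fatty acid uptake, had 19.0, 20.9 and 17.9 CPM in GFP and 21.8, 18.3 and 21.6 CPM in RBFOX1 cells. Here the libraries of the conditions were interleaved, the fitted log2 fold change was 0.094 (standard error 0.092), and the ratio of summed counts had an exact 95% interval from 0.968 to 1.18.

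**Figure D2:**
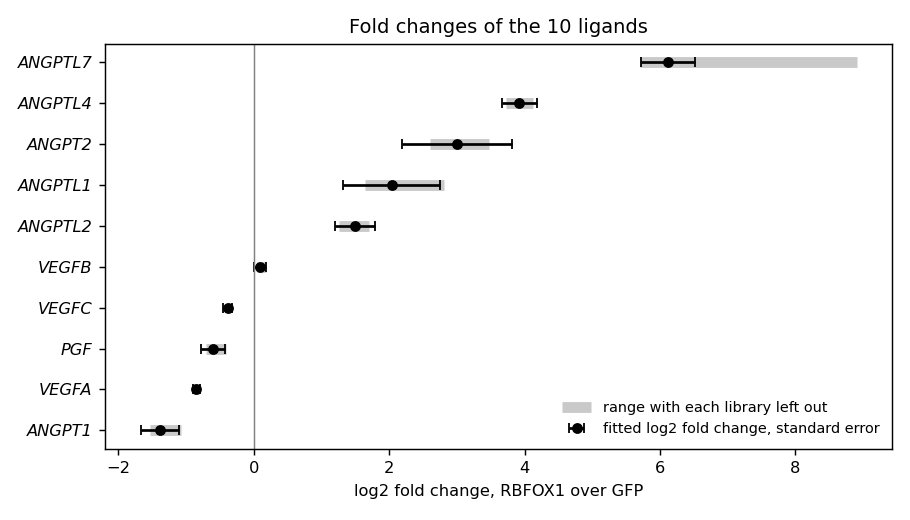
Fitted log2 fold change of each ligand, RBFOX1 over GFP (points), with its standard error (whiskers) and the range over the 6 fits that leave out 1 library (grey bars). ANGPTL7 is highest at 6.12 with a grey bar reaching 8.91 where no control count remained, ANGPT1 is lowest at -1.39, and VEGFB at 0.094 is the point nearest 0.

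Levels of different genes were compared only per length, as TPM, the counts divided by the length of the union of a gene's exons and scaled to the same total in every library. In GFP cells VEGFC (50.6 ± 3.54 TPM) and VEGFA (50.2 ± 4.42 TPM) headed the order and overlapped each other, followed by VEGFB (29.4 ± 2.73 TPM) and PGF (2.19 ± 0.290 TPM; SD, n = 3 each). ANGPT1, ANGPTL2 and ANGPTL4 came next at 0.993, 0.793 and 0.537 TPM, with ANGPT1 overlapping ANGPTL2 and ANGPTL2 overlapping ANGPTL4. ANGPTL1, ANGPTL7 and ANGPT2 closed the order, all under 0.2 TPM in every GFP library. They overlapped one another but not ANGPTL4. In RBFOX1 cells ANGPTL4 (9.32 ± 1.74 TPM) and ANGPTL7 (7.78 ± 0.408 TPM; SD, n = 3 each) stood directly below the 3 VEGF genes and above PGF, and their libraries overlapped over the union of exons but not with canonical transcripts. By its mean, ANGPTL7 thereby moved from place 9 to place 5 of the order. Over the union of exons its libraries did not separate it from ANGPTL1 and ANGPT2 in GFP cells or from ANGPTL4 in RBFOX1 cells.
The place of VEGFA depends on the length used. The union of its exons is 14431 bases, whereas its canonical transcript is 3609 bases long. With canonical transcripts, an alternative chosen after seeing the data, VEGFA led in both conditions, at 131 ± 9.81 TPM in GFP and 81.4 ± 4.70 TPM in RBFOX1 cells (SD, n = 3 each), and VEGFC came second.

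Summed per length over the VEGF ligands, VEGFD included, the level was 133.5 ± 9.43 TPM in GFP and 115.4 ± 4.91 TPM in RBFOX1 cells over the union of exons. Over canonical transcripts the sums were 195.9 ± 12.2 and 142.9 ± 6.97 TPM (SD, n = 3 each). TPM values were not scaled by TMM, so their differences between the conditions are not on the scale of the CPM values. VEGFB, level in CPM within its spread, had 29.4 ± 2.73 TPM in GFP and 36.5 ± 3.72 TPM in RBFOX1 cells over the union of exons (SD, n = 3 each). Among these ligands, the transcripts of VEGFA made up a smaller share in RBFOX1 cells under either length. The share was 37.5 ± 1.02% in GFP and 27.9 ± 0.467% in RBFOX1 cells over the union of exons, and 66.9 ± 1.04% and 56.9 ± 0.647% over canonical transcripts (SD, n = 3 each). The share of VEGFB was larger in RBFOX1 cells, 31.6 ± 1.93% against 22.0 ± 1.19% over the union of exons. Since the shares add up to the whole, this shows unequal change and not a change of VEGFB. The angiopoietin-like transcripts were taken as those of ANGPTL1, ANGPTL2, ANGPTL4, ANGPTL6 and ANGPTL7, without ANGPTL8, which had at most 1 count in any library. Among them in GFP cells, ANGPTL2 made up 47.1 ± 3.18% and ANGPTL4 32.8 ± 9.16% over the union of exons (SD, n = 3 each). These shares rest on 43 ANGPTL2 and 20 ANGPTL4 counts in all GFP libraries together. With canonical transcripts these shares were 43.3 ± 3.78% and 37.7 ± 9.77% and overlapped, ANGPTL4 being the larger in GFP replicate 2. In RBFOX1 cells ANGPTL4 (44.2 ± 5.97%) and ANGPTL7 (37.2 ± 4.2%; SD, n = 3 each) held most of the transcripts over the union of exons.

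**Figure D3:**
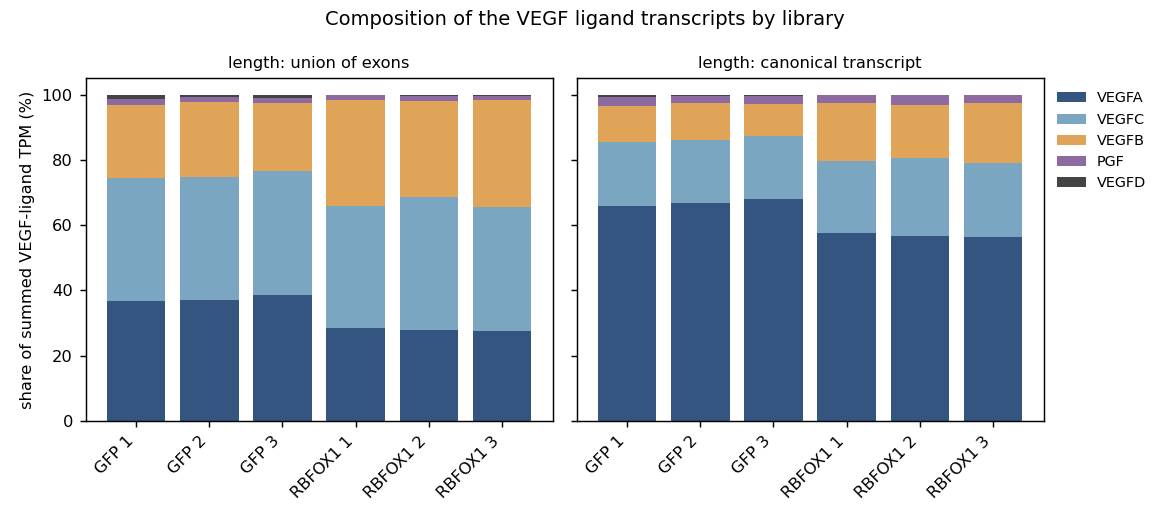
Share of the summed TPM of VEGFA, VEGFC, VEGFB, PGF and VEGFD (vertical axis, percent) in each library, with lengths taken from the union of exons (left) or the canonical transcript (right). The VEGFA segment is shorter in each RBFOX1 bar than in each GFP bar in both panels, from a mean of 37.5% to 27.9% on the left and from 66.9% to 56.9% on the right.

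Of the family members that were not among the 10 ligands, ANGPT4, ANGPTL5 and ANGPTL8 had at most 1 count in any library and could not be tested. VEGFD, the closest relative of VEGFC, had 26, 8 and 10 counts in the GFP and 0, 1 and 2 counts in the RBFOX1 replicates, a ratio of 0.0924 with an exact 95% interval from 0.0184 to 0.288. ANGPTL6, an angiopoietin-like gene linked to metabolism, had 0, 2 and 3 counts in the GFP and 4, 8 and 11 counts in the RBFOX1 replicates, a ratio of 6.24 with an exact 95% interval from 2.32 to 21.0. Each reached the minimum of 10 summed counts only through the condition in which it was higher, so no test is given for them.

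The receptors of these ligands moved in both directions, and 8 of the 11 tested passed the threshold, 4 higher and 4 lower in RBFOX1 cells, where 23.7% of all genes tested were higher and 22.9% lower. The median log2 fold change of the list was -0.57, the value of KDR, and turned to 0.50 with edgeR's stricter filter on low counts, beside 0.0051 for all genes tested. Those that rose were receptors of the VEGF and angiopoietin ligands. FLT1, the receptor of VEGFA, VEGFB and PGF, went from 10.97 ± 0.821 to 23.9 ± 1.13 CPM (SD, n = 3 each; log2 fold change 1.13, standard error 0.0908, adjusted p = 2.5e-09). FLT4, the receptor of VEGFC and VEGFD, rose from 10.1 ± 0.318 to 30.9 ± 2.07 CPM (log2 fold change 1.61, standard error 0.0882, adjusted p = 6.8e-12). The co-receptor NRP2 rose from 9.02 ± 0.209 to 23.9 ± 1.57 CPM (adjusted p = 1.24e-10). TEK stood at 8.75, 6.56 and 7.59 CPM in GFP and at 20.5, 24.4 and 21.7 CPM in RBFOX1 cells (log2 fold change 1.52, standard error 0.110, adjusted p = 5.28e-10). For all 4 receptors, the lowest RBFOX1 library lay above the highest GFP library.
NRP1, the co-receptor through which VEGFA binds KDR more strongly, fell the most of the receptors. It stood at 1072, 1168 and 1115 CPM in GFP and at 300.1, 303 and 296 CPM in RBFOX1 cells, with replicates of a condition close to one another (log2 fold change -1.90, standard error 0.0496, adjusted p = 8.62e-17). The integrin chains ITGB1 (log2 fold change -1.10, adjusted p = 2.74e-13), ITGA5 (-0.78, adjusted p = 3.03e-11) and ITGAV (-0.60, adjusted p = 1.46e-09), which bind matrix and some angiopoietin-like proteins, fell as well. KDR, the main signalling receptor of VEGFA, had 3 to 17 counts per library and did not pass the threshold (log2 fold change -0.57, standard error 0.505, adjusted p = 0.390). TIE1 (0.49, adjusted p = 0.365) had at most 16 counts in any library and did not pass it either, and LILRB2 had no count in any library. ITGB3 had 4, 6 and 7 counts in the GFP and 3, 1 and 0 counts in the RBFOX1 replicates. It reached the minimum of 10 summed counts only through the GFP libraries. No test is therefore given for ITGB3, although it is among the 11 counted as tested.

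Genes that define endothelial cells, in which most of these receptors normally work, were also examined. PECAM1 rose by 2.99 on the log2 scale (adjusted p = 4.92e-09, edgeR's quasi-likelihood test). CDH5 had 2, 4 and 2 counts in GFP and 9, 14 and 16 in RBFOX1 cells, and VWF had 2, 2 and 1 against 10, 29 and 28. The latter pair reached the minimum of 10 summed counts only through the RBFOX1 libraries, so no test is given for them. CLDN5 and EMCN had at most 1 count in any library. The 5 markers summed to 0.831 to 1.01 CPM in the GFP and to 6.97 to 7.84 CPM in the RBFOX1 libraries. Among 5 mural cell markers 3 rose and 2 fell (23.7% and 22.9% of all genes tested). RGS5 rose from 8.00 ± 0.69 to 104.6 ± 7.37 CPM, and ACTA2 fell from 25.55 ± 1.48 to 8.92 ± 0.69 CPM (SD, n = 3 each). The 5 mural markers summed to 318 to 342 CPM in the GFP and to 355 to 393 CPM in the RBFOX1 libraries. Among 4 immune markers 3 were tested and 2 rose (23.7% of all genes tested), while AIF1 had no count. The immune markers summed to 1.97 to 2.97 CPM in the GFP and to 6.78 to 7.19 CPM in the RBFOX1 libraries. Their part in the levels of the ligands and receptors was not tested.

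**Figure D4:**
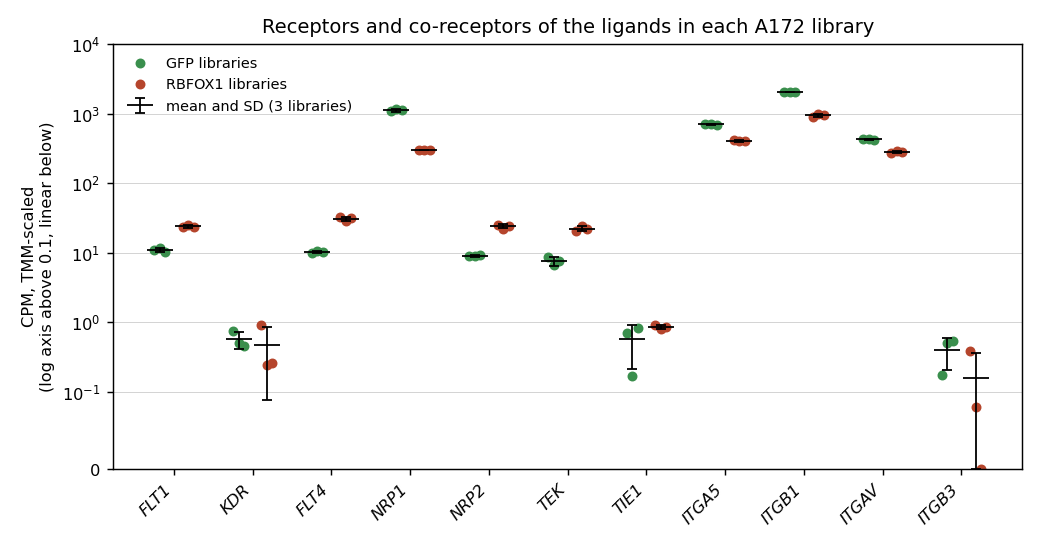
CPM (TMM-scaled, vertical axis logarithmic above 0.1 and linear below) of the 11 tested receptors and co-receptors in each library (points), with the mean and SD of each condition as black bars (cut at 0). FLT1, FLT4, NRP2 and TEK lie higher in all 3 RBFOX1 libraries, NRP1 and the integrin chains ITGA5, ITGB1 and ITGAV lie lower, and KDR, TIE1 and ITGB3 overlap near or below 1 CPM.

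ANGPTL4 blocks lipoprotein lipase, so the lipases and their partners were listed beside it. Of the 5 genes tested, 1 rose and 2 fell (23.7% and 22.9% of all genes tested), with a median log2 fold change of -0.63. LPL, lipoprotein lipase itself, rose from 2.34 ± 0.476 to 4.0 ± 0.629 CPM (SD, n = 3 each; log2 fold change 0.71, adjusted p = 0.00556). The endothelial lipase gene LIPG fell by 0.63 (adjusted p = 6.1e-06) and LMF1, needed for lipase maturation, fell by 0.54 (adjusted p = 0.000157) on the log2 scale. LIPC (-0.92, adjusted p = 0.0906) did not pass the threshold. GPIHBP1 had 7, 4 and 5 counts in the GFP and 2, 0 and 1 counts in the RBFOX1 replicates. It reached the minimum of 10 summed counts only through the GFP libraries. No test is therefore given for GPIHBP1, although it is among the 5 counted as tested.

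Other ligands of vessel growth also moved both ways, 6 of 14 tested genes higher and 4 lower in RBFOX1 cells (23.7% and 22.9% of all genes tested). The vasoconstrictor endothelin gene EDN1 rose by 2.59 on the log2 scale (standard error 0.115, adjusted p = 2.89e-13). The matricellular genes CCN1 and CCN2 rose by 2.001 and 1.75 (adjusted p = 2.04e-12 and 6.46e-13). The Notch ligand gene JAG1 had a log2 fold change of -1.73 (adjusted p = 2.88e-12), PDGFC one of -0.81 (adjusted p = 2.95e-09) and EFNB2 one of -0.49 (adjusted p = 0.000222). The median log2 fold change of this list was 0.66, and 0.42 without RBFOX1 replicate 2, beside 0.0051 for all genes tested.
Genes known to restrain angiogenesis were likewise divided, with 3 of 10 tested genes higher and 5 lower (23.7% and 22.9% of all genes tested). The median was -0.20, and became -0.41 without a filter on low counts and -0.39 with DESeq2. SERPINF1, which encodes the inhibitor PEDF, rose from 18, 4 and 17 counts to 161, 251 and 353 counts (log2 fold change 4.71, standard error 0.187, adjusted p = 5.32e-14). THBS1, thrombospondin, rose from 14.2 ± 1.61 to 116 ± 2.28 CPM (adjusted p = 2.86e-17), and its relative THBS2 fell from 1854 ± 44.3 to 1002 ± 20.8 CPM (adjusted p = 3.18e-12; SD, n = 3 each). SEMA3B rose by 0.47 (adjusted p = 0.000338) and ADAMTS1 fell by 0.87 (adjusted p = 9.15e-06) on the log2 scale. SEMA3F fell by 0.77 (adjusted p = 0.0106), a call that was lost with DESeq2 (adjusted p = 0.106) and without RBFOX1 replicate 3 (0.0544).

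VEGFA and ANGPTL4 are known targets of the hypoxia factor HIF. Of 19 other HIF target genes tested, 6 were higher and 7 lower (23.7% and 22.9% of all genes tested), with a median log2 fold change of 0.056. ADM, adrenomedullin, rose by 2.31, the hexokinase gene HK2 by 1.46 and EGLN3, a HIF hydroxylase, by 1.04 (adjusted p = 4.27e-13, 2.89e-08 and 0.0017). NDRG1, BNIP3 and P4HA1 fell by 1.11, 0.66 and 0.53 (adjusted p = 1.77e-10, 6.42e-08 and 8.61e-08). ANGPTL4 is also a target of the fatty acid sensing PPAR receptors, and of 10 tested PPAR target genes 5 were higher and 1 was lower (23.7% and 22.9% of all genes tested), with a median of 0.37 that became 0.58 without GFP replicate 1. Among the 5, PDK4 had 6 counts in all GFP libraries together and reached the count minimum only through the RBFOX1 libraries. FABP3, a fatty acid binding protein gene, rose from 0.937 ± 0.175 to 10.2 ± 0.160 CPM (SD, n = 3 each; log2 fold change 3.46, adjusted p = 1.85e-12). SLC25A20 and CPT1A, of carnitine-dependent fatty acid import into mitochondria, rose by 0.62 and 0.60 (adjusted p = 5.41e-06 and 5.88e-08). PPARA and PPARG, which encode such receptors, fell by 1.04 and 0.75 (adjusted p = 9.92e-10 and 1.17e-07), as did their partner RXRA by 0.57 (adjusted p = 3.4e-06), while PPARD rose by 0.68 (adjusted p = 1.33e-06). On the HIF side, VHL rose by 0.73 (adjusted p = 2.53e-09) and EPAS1 by 0.40 (adjusted p = 0.00014). In all, 6 of the 10 regulators listed were higher and 3 lower (23.7% and 22.9% of all genes tested), with a median of 0.15. The part of HIF or the PPAR receptors in the levels of the ligands was not tested.
Glucocorticoids are known to induce ANGPTL4 and, in the trabecular meshwork, ANGPTL7. Of 6 tested glucocorticoid target genes, 5 were higher and none was lower, with a median of 0.35; in the same fit, 23.7% of all genes tested were higher and 22.9% lower. FKBP5 rose by 1.49 (adjusted p = 1.98e-10), DUSP1 by 1.37 (adjusted p = 8.49e-12) and PER1 by 0.47 (adjusted p = 0.00648) on the log2 scale. DESeq2 called 3 of the 5, and there PER1 did not pass (adjusted p = 0.0591). MYOC, the myocilin gene of the trabecular meshwork, and ZBTB16 had no count in any library. The part of glucocorticoid signalling in the levels of ANGPTL4 and ANGPTL7 was not tested.

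**Figure D5:**
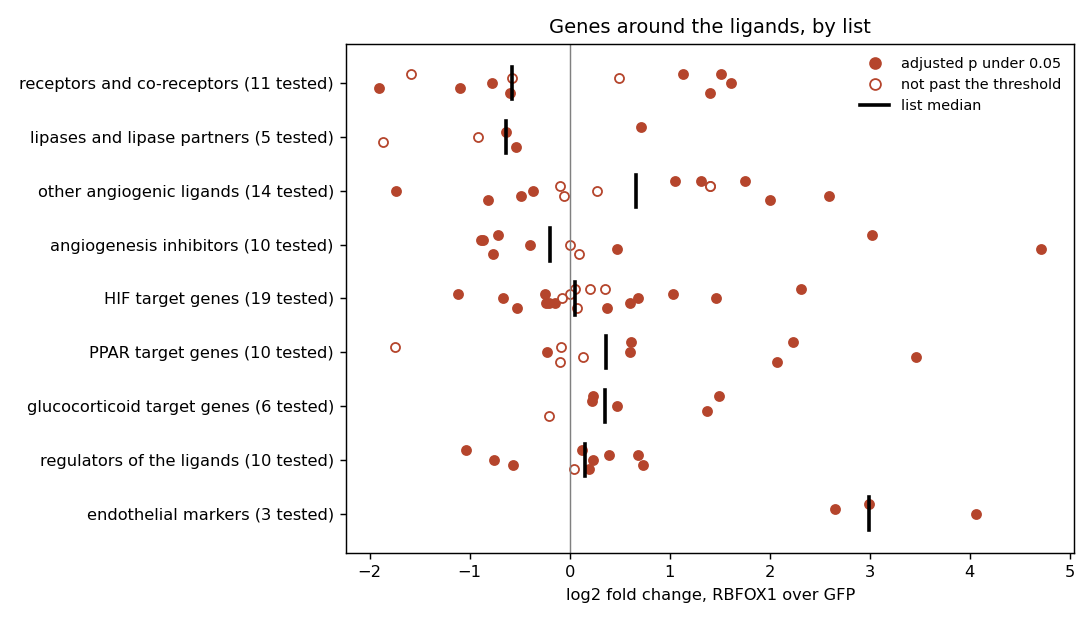
Log2 fold change, RBFOX1 over GFP, of each tested gene of 9 lists (points; filled where the adjusted p of edgeR's quasi-likelihood test was under 0.05), with the list median as a black line. The lists of receptors, other ligands, inhibitors and HIF targets hold filled points on both sides of 0. Of the endothelial markers, PECAM1 lies at 2.99. The points of CDH5 (2.65) and VWF (4.06) are filled as well, but no test is read from them. These 2 genes reached the count minimum only through the RBFOX1 libraries.

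The protein-coding genes whose profile lay nearest to that of ANGPTL7, by Euclidean distance between log2 CPM values (prior count 2) over the 6 libraries, were CABP7, ESPN, MYBPC2, SULT1C2 and CPA5, out of 14093 genes compared. Their distances were 0.729, 0.759, 0.924, 0.981 and 1.01. CABP7, the nearest, was counted 1, 0 and 0 times in the GFP and 45, 67 and 95 times in the RBFOX1 libraries. CPA5, the fifth, was counted 2, 0 and 1 times in the GFP and 25, 56 and 51 times in the RBFOX1 libraries. With 6 libraries in 2 conditions, this nearness says only that these genes too were almost absent from GFP cells and reached a few CPM in RBFOX1 cells.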

How the data were processed

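RNA from A172 cells expressing GFP or RBFOX1 was rRNA-depleted and sequenced as stranded paired-end libraries, 3 per condition. The authors aligned reads with HISAT2 (GRCh38), assigned them to Ensembl genes by HTSeq-count (mode intersection-strict, reverse strand) and deposited raw counts per gene for each library. Their DESeq2 comparison (mean, fold change, standard error, test statistic and p-values) was not used here. Tool versions were not given in the sources used here. The share of read pairs assigned to a gene was 52 to 61.85%, and the other classes stayed out of library sizes.

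Library sizes were scaled by TMM, and the conditions were compared in edgeR 4.0.16 (R 4.3.3) by the two-sided quasi-likelihood test, without covariates, over genes with 10 or more summed counts. P-values were adjusted by Benjamini-Hochberg, and standard errors were derived from the fold change and its F statistic. Alternatives were DESeq2 (1.42.0), other scalings and filters, a replicate block and the omission of each library. The procedure was tested on simulated counts in which only well-counted genes were changed, so that test does not cover the ligands with few control counts. Symbols, coordinates, lengths and untranslated regions were taken from GENCODE 44 (GRCh38), to which 98.1% of gene identifiers matched. TPM values were computed from the deposited counts.

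The ligands and gene lists were chosen with earlier results of these data known. Genes named were the 10 ligands, RBFOX1, all other family members, receptors, lipase genes and host genes, the 5 genes nearest to ANGPTL7, and from each other list up to 3 genes with the largest rise and 3 with the largest fall past the threshold, if their normalized counts averaged 20 or more and the conditions did not overlap. The marker genes, PDK4, MYOC and ZBTB16 were named outside that rule after their values were seen. Some genes that the rule covers are not reported here.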

Additional observations from a re-analysis of the deposited data

How the results depend on the processing

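The direction of each of the 10 ligands was the same under every alternative in which it was tested, and the counts of genes called across the whole table stayed within 1.5 times their value. With edgeR's own filter on low counts, which drops ANGPTL1 and ANGPT2, 3 ligands were called higher, and 0 of the other family members were tested. DESeq2 called 3 glucocorticoid target genes and 0 host genes. Leaving out each library in turn left 0 to 1 host genes called, RALGPS1. Without GFP replicate 1 or with DESeq2, ANGPTL1 and PGF were not called. ANGPTL1 was also not called without GFP replicate 2 or RBFOX1 replicate 1. The cause of these lost calls was not tested. Since the ligands were chosen with the contrast known, no test is read from the call of any ligand, kept or lost. Replicates of the conditions share only a number: the deviations of same-numbered libraries correlated at -0.033, 0.016 and -0.00050 across genes. With a replicate block, 4588 genes were called higher and 4458 lower, against 4869 and 4712 without it, and 0 host genes were called, while the calls of the 10 ligands were those of the fit without the block. Per-length levels depend on the transcript length assumed, most for VEGFA, whose mean over the 6 libraries was 106 TPM with canonical transcripts. Depth limits the genes with 3 or fewer counts in each library of a condition, among them ANGPTL7, ANGPTL1, ANGPT2, ANGPTL6, VEGFD, VWF, ITGB3 and GPIHBP1.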
